A study of Mus musculus with 6 samples.

Results

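The AP-1 subunits *Jun*, *Junb*, *Jund*, *Fos*, *Fosb*, *Fosl1* and *Fosl2*, their relative *Atf3* and the zinc finger factors *Egr1* and *Egr3* were described in sciatic nerve RNA. They are the 10 genes whose symbols in the deposited table of 46603 genes match this set by name. The rule itself uses no measured value, but the set was put together with earlier results of these data known. RNA-Seq libraries, 6 in all, were made from sciatic nerves of mice at postnatal day 9 (P9). For the 3 control libraries the mice carried a conditional *Ep400* allele, and for the 3 *Ep400ΔPNS* libraries they carried the conditional allele together with *Dhh::Cre*, a transgene active in Schwann cells (SCs) that removes the chromatin remodeler *Ep400* from them. Per the labels both genotypes had a mixed 129SvJ/C57Bl/6J background, whereas the methods name C3H and C57Bl/6J, and the 3 libraries of a genotype are labelled as biological replicates. Whether each came from a single mouse is not stated.

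The values below are the authors' mean over all 6 libraries of counts scaled for library size. This mean joins both genotypes, so the levels describe P9 nerve as sequenced, and no difference between *Ep400ΔPNS* and control nerves is given. A nerve also holds fibroblasts, endothelial cells, perineurial cells and macrophages. In such bulk RNA, fewer cells of a type and less RNA per cell cannot be told apart.

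AP-1 is a family of dimeric transcription factors whose subunits pair through a leucine zipper and contact DNA through an adjacent basic stretch. Jun proteins can pair with each other or with Fos proteins, Fos proteins depend on a Jun partner, and Atf3 pairs with itself or with Jun proteins. Many of these genes are immediate early genes, transcribed within minutes of a stimulus from factors already present in the cell. In SCs, Jun is known as a driver of the repair cell state after nerve injury, and it counteracts the myelination program that Egr2 (Krox20) directs.

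All 10 genes were detected, with a mean of at least 10 normalized counts, and 9 of them reached 50. Of all 46603 genes, 17012 had a mean of at least 10 and 13577 of at least 50. Together the 10 genes held 0.0664% of the 25608535 normalized counts that the means of all genes sum to. Divided by exon length, because longer transcripts give more reads, the median of the 10 genes was 222 normalized counts per kb, against 90.8 for the 16931 genes of known length whose mean reached 10. Above that median lay 7 of the 10 genes, and the highest gene, *Jund*, exceeded the lowest, *Fosl1*, 173-fold.

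AP-1 subunits meet in the zipper, a coiled coil with a leucine at every seventh residue. The coding bases of this stretch, running from the first to the last of 5 such leucines, are shown for the more abundant members of each family and for *Atf3*. Each is read 5′ to 3′ from GRCm38 (mm10) with GENCODE M21 exons, and capitals mark the leucine codons. Coordinates span the stretch in the genome, including an intron where there is one.
*Jun*, chr4:95050339-95050425, minus strand: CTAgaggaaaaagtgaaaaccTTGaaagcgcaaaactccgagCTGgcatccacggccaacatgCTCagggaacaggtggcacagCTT
*Jund*, chr8:70699925-70700011, plus strand: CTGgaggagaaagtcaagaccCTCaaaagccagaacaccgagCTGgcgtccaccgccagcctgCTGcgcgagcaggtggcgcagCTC
*Fos*, chr12:85475691-85475894, plus strand: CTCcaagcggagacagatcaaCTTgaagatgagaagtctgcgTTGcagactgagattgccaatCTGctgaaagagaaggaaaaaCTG
*Fosl2*, chr5:32150520-32152748, plus strand: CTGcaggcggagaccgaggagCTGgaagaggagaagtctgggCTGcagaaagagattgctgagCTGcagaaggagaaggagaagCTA
*Atf3*, chr1:191171602-191172383, minus strand: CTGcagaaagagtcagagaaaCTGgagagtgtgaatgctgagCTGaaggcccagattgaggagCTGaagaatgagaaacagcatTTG

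The stretch of 29 residues lay within a single exon in the 3 *Jun* genes and was split by 1 intron in the 4 *Fos* genes and in *Atf3*. Translated, Jun and Jund shared 25 of 29 residues, and Junb shared 21 with each of them. The 4 Fos proteins shared 21 to 22 residues with each other. Across families, a Jun and a Fos protein shared 5 to 8 residues, or 0 to 3 of the 24 outside the leucines that the stretch was chosen to contain. Atf3 shared 11 to 14 residues with the Fos proteins and 7 to 8 with the Jun proteins, so that over this stretch it was nearer to the Fos proteins.

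The bases before the start site are shown for the genes in which a searched motif was found. RefSeq promoter entries (GRCm38.p6) were matched for 7 of the 10 genes, namely *Jun*, *Junb*, *Jund*, *Fos*, *Fosb*, *Fosl2* and *Atf3*. The 250 bases upstream of the start were searched on both strands, and the 110 bases next to it are shown 5′ to 3′ on the strand of the gene. Capitals mark TGACG, the first bases of a cyclic AMP response element (CRE), or its reverse complement in *Atf3*, and the motifs CCAAT and TATAAA.
*Jun*, chr4:95052223-95052332, minus strand: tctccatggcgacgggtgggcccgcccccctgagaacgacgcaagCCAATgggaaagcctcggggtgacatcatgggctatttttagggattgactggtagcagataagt
*Junb*, chr8:84978749-84978858, minus strand: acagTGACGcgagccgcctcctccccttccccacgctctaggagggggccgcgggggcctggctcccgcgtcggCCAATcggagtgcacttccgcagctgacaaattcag
*Fos*, chr12:85473780-85473889, plus strand: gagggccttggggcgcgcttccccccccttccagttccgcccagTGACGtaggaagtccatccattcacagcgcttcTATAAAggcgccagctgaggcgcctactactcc
*Fosb*, chr7:19310046-19310155, minus strand: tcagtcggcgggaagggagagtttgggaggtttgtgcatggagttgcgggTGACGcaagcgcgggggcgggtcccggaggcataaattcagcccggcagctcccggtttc
*Atf3*, chr1:191183334-191183443, minus strand: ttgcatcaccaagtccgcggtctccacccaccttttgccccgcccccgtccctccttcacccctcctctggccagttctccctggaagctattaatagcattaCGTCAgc

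A CRE core (TGACG) was present upstream of 4 of the 7 genes and upstream of 17.8% of 32851 promoters of the same length. In *Fos* it began at base -66, counted back from the start, with another match at base -129. In *Junb* it began at base -106, in *Fosb* at base -60 and in *Atf3*, on the opposite strand, at base -7. CCAAT was found upstream of *Jun* at base -65 and *Junb* at base -36, against 33.8% of all promoters. TATAAA was found only upstream of *Fos* among the 7 genes, at base -33, against 12.4% of promoters.

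None of the 7 windows held the AP-1 site TGAGTCA, the whole CRE TGACGTCA, which contains a CRE core, the Egr site GCGTGGGCG or a CArG box, the serum response element core of CC, 6 bases of A or T and GG. These letters were present in 4.46%, 1.55%, 0.536% and 1.47% of all promoters. Only exact matches within 250 bases of the start were sought. Variants, such as the TGACATCA in the *Jun* window shown above, and sites further upstream were therefore not counted. *Egr1*, *Egr3* and *Fosl1* had no promoter entry and were not searched. The RefSeq start coincided with the outermost GENCODE start for *Jun* and *Fos* and lay 6 bases from it for *Fosb* and 30 bases for *Junb*. It lay 671 bases downstream for *Fosl2*, 34706 bases downstream for *Atf3* and 1210 bases upstream for *Jund*, so these 3 windows flank a different start.

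**Figure D1:**
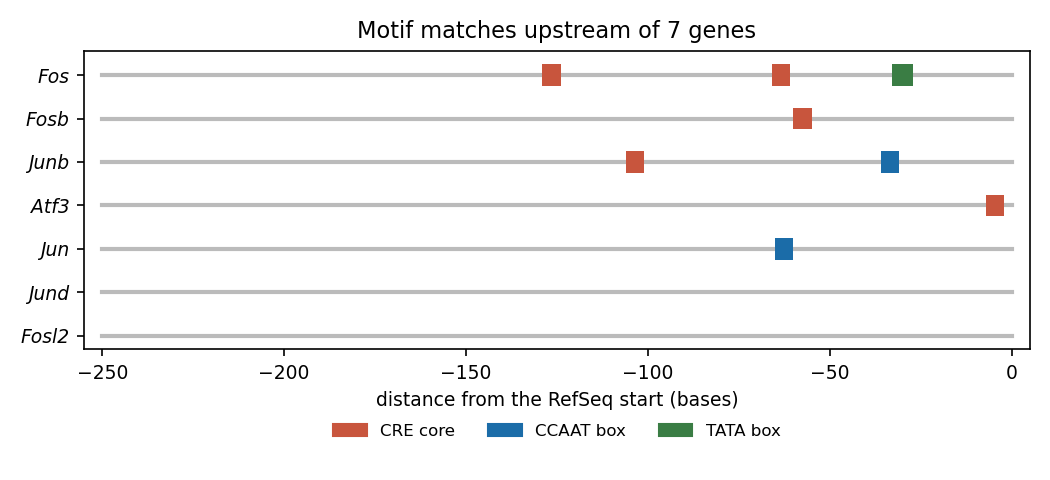
Motif matches upstream of 7 genes. Grey lines span the 250 bases before the RefSeq start (x axis, distance in bases), and boxes are matches to the CRE core, CCAAT or TATAAA on either strand. *Fos*, *Fosb*, *Junb* and *Atf3* hold a CRE core, and *Jund* and *Fosl2* hold no match.

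*Jund* had the highest level of the 10 genes. It encodes a Jun protein that, in contrast to most AP-1 subunits, is present in many resting cells. Its mean of 5063 normalized counts corresponded to 3035 per kb (95% counting interval 3001 to 3070), above 98.7% of the genes compared. *Jund* (ENSMUSG00000071076) spans 70698949 to 70700616 on the plus strand of chromosome 8. The antisense gene *Gm11175* lies there with all 877 of its exon bases inside *Jund*, which is 52.6% of the *Jund* exon, and had a mean of 27.5. The mean of *Jund* was 184-fold that of *Gm11175*.

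*Jun*, the founding AP-1 gene, followed with a mean of 3273 normalized counts or 1026 per kb (1012 to 1041), above 95.1% of genes. *Jund* was 2.96-fold higher than *Jun* per kb. *Jun* (ENSMUSG00000052684) lies on the minus strand of chromosome 4 from 95049034 to 95052222 and shares 232 exon bases, 7.28% of its own, with the antisense gene *Junos*, whose mean was 29.3. *Junb*, whose product often acts against Jun at shared targets, was the low Jun gene with a mean of 319 or 139 per kb (133 to 145). *Jun* exceeded it 7.39-fold and *Jund* 21.9-fold per kb. *Junb* (ENSMUSG00000052837) lies on the minus strand of chromosome 8 from 84974484 to 84978718, and 173 of its exon bases, or 7.52%, are shared with *Prdx2* on the other strand, which had a mean of 1743.

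The *Fos* genes encode the obligate partners of the Jun proteins, and their levels spanned a similar range at a lower height. *Fosl2*, which encodes Fra-2, had a mean of 3494 normalized counts, but over 9680 exon bases, so that its level was 361 per kb (356 to 366). By mean it was above 92.6% of genes and per kb above 83.1%. *Fosl2* (ENSMUSG00000029135) spans 32135801 to 32157842 on the plus strand of chromosome 5. *Fos*, the classic immediate early gene, had a mean of 627 or 266 per kb (258 to 275), from chromosome 12, 85473890 to 85477273 on the plus strand (ENSMUSG00000021250). *Fosl2* exceeded *Fos* 1.36-fold per kb of exon, 1.80-fold per kb of the longest transcript and 5.58-fold without length correction.

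The remaining Fos genes were near the lower end of expressed genes. *Fosb* (ENSMUSG00000003545, minus strand of chromosome 7, 19302696 to 19310051) had a mean of 136 or 21.8 per kb (20.3 to 23.3), above 20.5% of genes. *Fos* was 12.2-fold higher per kb of exon and 8.28-fold per kb of the longest transcript. *Fosl1*, which encodes Fra-1, was the lowest with a mean of 35.7 or 17.6 per kb (15.3 to 20.1), above 17.5% of genes. *Fosl1* (ENSMUSG00000024912) spans 5447547 to 5455946 on the plus strand of chromosome 19, and 1163 of its 2033 exon bases, 57.2%, are shared with *Ccdc85b* on the other strand, whose mean was 605. The library kit keeps strand, but no source used here states if counting made use of it, so reads of these overlapping pairs may not be fully separated.

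**Figure D2:**
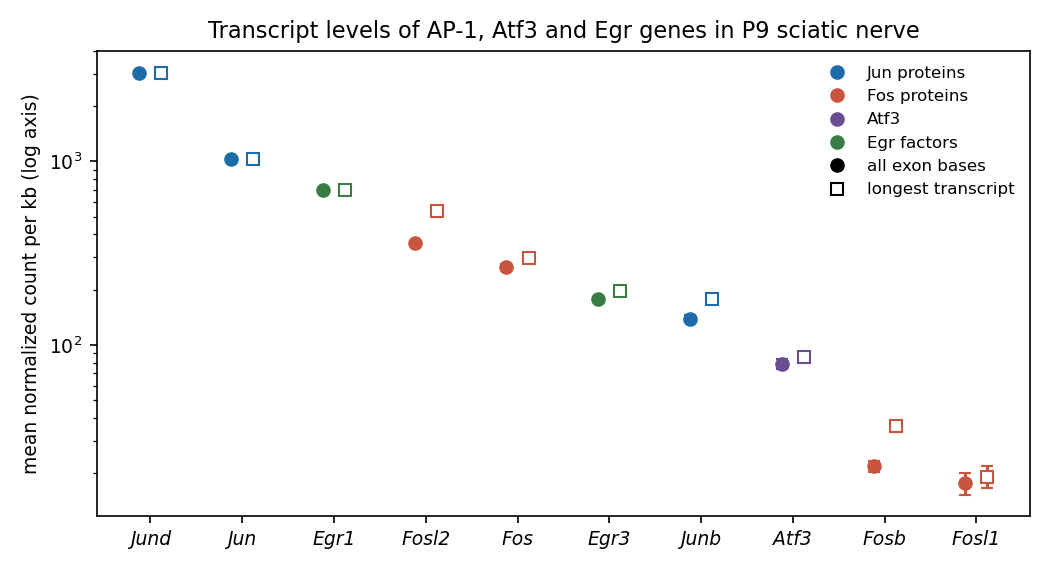
Levels of the 10 genes. Filled circles give the authors' mean over 6 libraries divided by exon length (normalized counts per kb, log axis) with 95% Poisson intervals for counting error, open squares the same for the longest transcript, and colors the families. *Jund* at 3035 and *Jun* at 1026 stand at the top, and *Fosb* at 21.8 and *Fosl1* at 17.6 at the bottom.

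Summed per kb, the 3 *Jun* genes reached 4200 normalized counts and the 4 *Fos* genes 667, a ratio of 6.30. *Jund* alone made up 62.4% of the 7 genes, *Jun* 21.1%, *Fosl2* 7.42%, *Fos* 5.47% and *Junb* 2.85%. *Fosb* held 0.447% and *Fosl1* 0.361%. The share of the *Jun* genes depended on the length used. It was 86.3% of the sum per kb of all exons, 82.7% per kb of the longest transcript and 66.8% with no correction, where the long *Fosl2* transcript counted for 27.0% and *Jund* for 39.1%. The ratio of the family sums accordingly fell from 6.30 to 4.78 with the longest transcript and to 2.02 without length. These are transcript levels of a mixed tissue and not amounts of dimers.

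**Figure D3:**
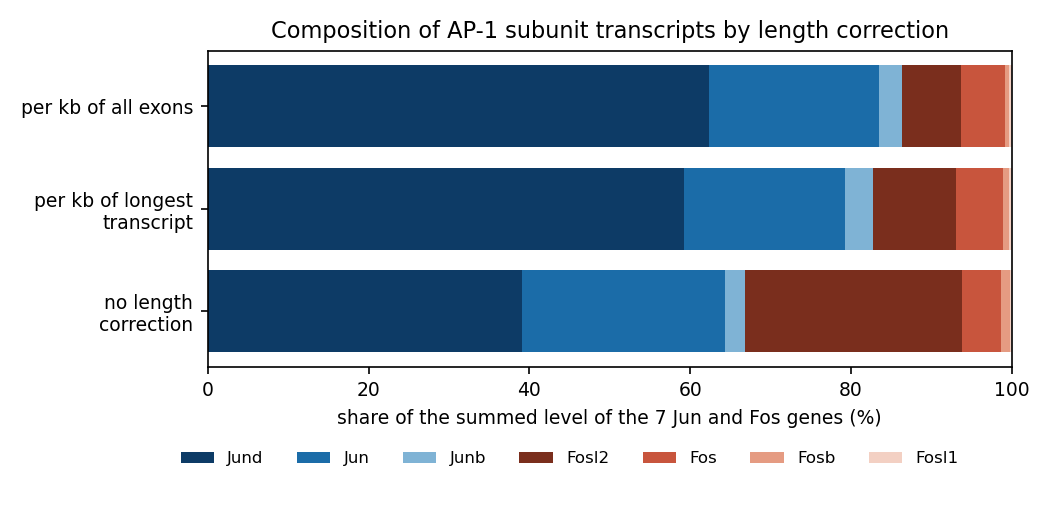
Composition of AP-1 subunit transcripts. Bars stack the share (%) of each of the 7 Jun and Fos genes in their summed level under 3 length corrections, with Jun genes in blue and Fos genes in red. The Jun genes hold 86.3%, 82.7% and 66.8% from top to bottom.

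*Atf3*, a stress-induced member of the ATF/CREB family and a marker of injured neurons and SCs, had a mean of 170 normalized counts or 79.0 per kb (74.2 to 84.0). Its level was above 46.2% of genes, below the median gene, and 13.0-fold lower than that of *Jun*. *Atf3* (ENSMUSG00000026628) lies on the minus strand of chromosome 1 from 191170296 to 191218039. *Jdp2*, which encodes another Jun dimerization partner, was 4.97-fold higher than *Atf3*, and *Atf4*, a factor of the integrated stress response, was 16.9-fold higher.

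*Egr1* and *Egr3* encode zinc finger factors that share a GC-rich site with Egr2, the regulator of myelination. *Egr1* (ENSMUSG00000038418, chromosome 18) had a mean of 3119 normalized counts or 696 per kb (686 to 706), above 92.2% of genes and next after *Jund* and *Jun*. *Egr3* (ENSMUSG00000033730, plus strand of chromosome 14, 70077203 to 70082614) had a mean of 778 or 177 per kb (172 to 182). *Egr2* was higher than both, at 1302 per kb, which is 1.87-fold over *Egr1* and 7.37-fold over *Egr3*. *Egr4* had a mean of only 0.780 normalized counts. The corepressors that bind Egr factors were both present, *Nab2* at 1068 and *Nab1* at 552 per kb.

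Ordered per kb, the genes ran *Jund*, *Jun*, *Egr1*, *Fosl2*, *Fos*, *Egr3*, *Junb*, *Atf3*, *Fosb* and *Fosl1*. In none of the 9 pairs of neighbours did the counting intervals overlap. Per kb of all exons, the narrowest step was *Fosb* over *Fosl1* at 1.24-fold, followed by *Egr3* over *Junb* at 1.27-fold. With the longest transcript it was *Egr3* over *Junb* at 1.12-fold, and *Fosb* exceeded *Fosl1* 1.88-fold. These intervals cover counting error only. The spread between libraries is not in the mean, so neighbours that stand close in this order cannot be said to differ beyond it. The order was unchanged when the longest transcript replaced all exons, whereas 5 of the 10 places changed with no length correction.

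For *Fosl1* the mean was low enough to be resolved into whole reads of each library. The smallest means of the table are those of genes with 1 read in 1 library, which gives 6 size factors of 0.908 to 1.20. With these, a single set of whole reads gave the *Fosl1* mean to the digits deposited. The 6 libraries, named A to F in order of falling size factor, carry no genotype, and none was assigned from their values.

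*Fosl1* had 6, 19, 6, 58, 86 and 30 reads in libraries A to F, 205 in all. After scaling these were 4.996, 17.4, 6.21, 60.1, 92.4 and 33.0 normalized counts, with a median of 25.2. The highest library exceeded the lowest 18.5-fold and held 43.1% of the sum, so that the mean of 35.7 was above 4 of the 6 libraries. This spread between libraries is not covered by the counting interval of the mean. A further set of 55, 86, 6, 23, 38 and 17 reads came within a 10 times wider tolerance, but its mean differed from the deposited one beyond rounding. The means of the other 9 genes were too high for this step.

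**Figure D4:**
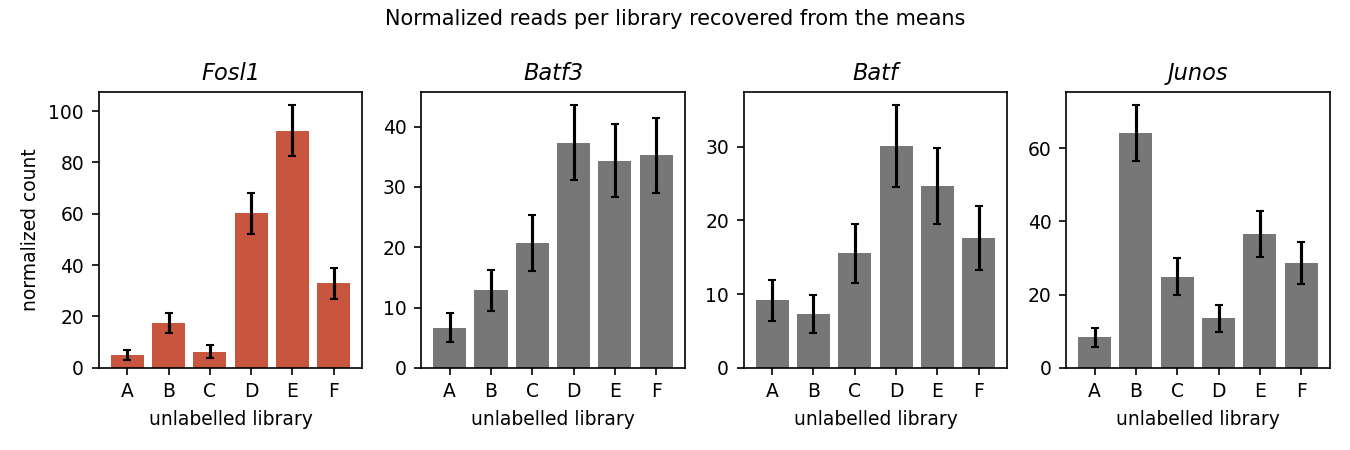
Normalized counts of *Fosl1*, *Batf3*, *Batf* and *Junos* in 6 unlabelled libraries, A to F. Bars start at 0 and lines give the square root of the reads, scaled, as counting error. *Fosl1* ranged from 4.996 in library A to 92.4 in library E.

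Genes that act with or beside these factors were taken from lists chosen by function. Among 23 other basic leucine zipper genes all 23 had a mean of at least 10, with a median of 177 per kb. *Maf* was highest at 1629, followed by *Atf5* at 1356, *Atf4* at 1335 and *Nfe2l1*, a regulator of proteasome genes, at 844. *Jund* was 1.86-fold above *Maf* per kb of exon and 1.44-fold per kb of the longest transcript, whereas without length correction *Maf*, with a mean of 13421, was 2.65-fold above *Jund*. The lowest 3 were *Batf3*, *Batf* and *Batf2*, the latter at 7.20 per kb, whose products pair with Jun proteins in lymphoid and myeloid cells.

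Of 27 other immediate early genes, 25 had a mean of at least 10, and the median was 201 per kb over these and 182 over all 27. *Zfp36l1*, which encodes an mRNA decay factor, was highest at 1711 and 2.46-fold above *Egr1*. *Klf6* followed at 1035, the nuclear receptor gene *Nr4a1* at 884 and the ERK phosphatase gene *Dusp6* at 676. The 2 below the limit were *Ptgs2* and *Npas4*, the second a gene of active neurons.

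Many immediate early genes are switched on through serum response factor and its partners, among them the ternary complex factors. All 6 genes of this list were present between 149 and 728 per kb, led by *Elk4* at 728, *Srf* at 458, *Elk3* at 304 and *Mkl2* at 218. The 17 genes of the JNK, ERK and p38 cascades, which phosphorylate Jun and the ternary complex factors, all had a mean of at least 10. The JNK scaffold gene *Mapk8ip1* reached 2336 per kb and *Mapk3*, which encodes ERK1, 2204, ahead of *Map2k7* at 521. The lowest was *Mapk10*, the JNK gene of neurons, at 2.07.

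Genes linked to Jun in injured SCs were mostly low. Of 12 genes, 10 had a mean of at least 10, and the median of these 10 was 54.6 per kb, against 90.8 for all genes over that limit. Above 90.8 lay 3 of them, namely *Ngfr*, which encodes the p75 neurotrophin receptor, at 2949 per kb, the immature SC factor *Sox2* at 379 and *Cdh2* (N-cadherin) at 116. With the 2 genes under the limit included, the median was 38.3. *Bdnf* and *Olig1* had means of 8.21 and 1.96.

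**Figure D5:**
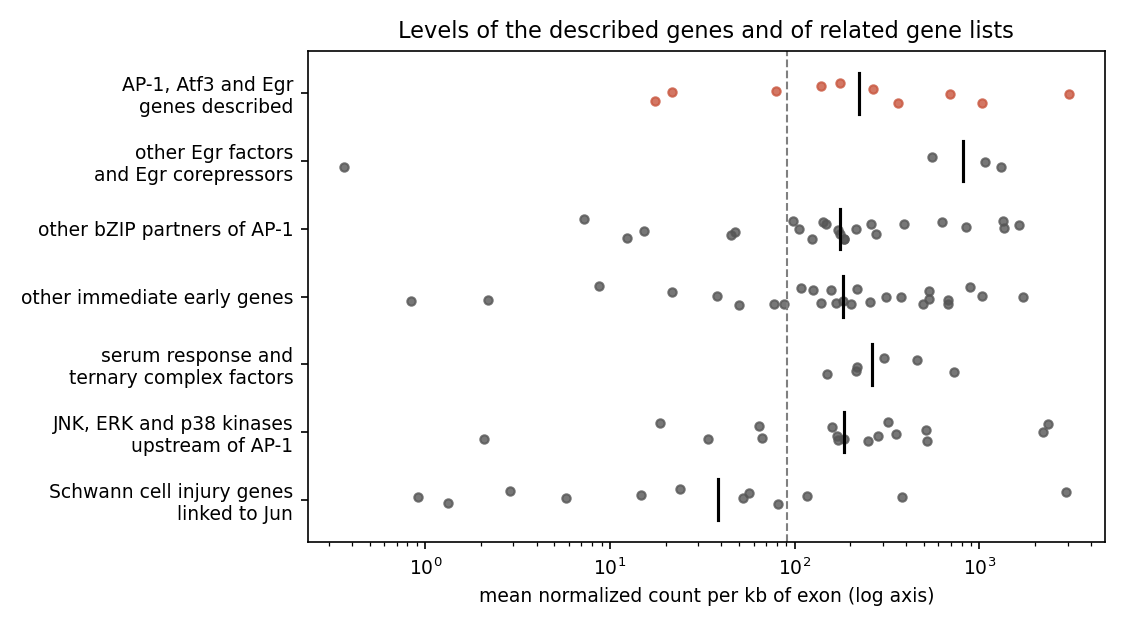
Levels of the 10 described genes and of 6 related lists. Each point is a gene (mean normalized count per kb of exon, log axis), short vertical lines are list medians and the dashed line is the median of 90.8 over genes whose mean reached 10. Over all its genes, the injury list has its median at 38.3, and the described genes at 222.

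Markers of the labelled nerve were present, and so were those of skeletal muscle, which the label does not name. All 8 SC markers were present at 2303 per kb (*Erbb3*) or more, and *Sox10* was 3.66-fold above *Jun*. All 5 fibroblast markers were present and held 4.49% of counts, and the 6 macrophage markers ranged from 65.8 to 1346 per kb. The 5 endothelial, 3 perineurial and 5 smooth muscle and pericyte markers all had a mean of at least 10. All 6 skeletal muscle markers were also present, at 115 to 4519 per kb. The highest of these, *Acta1*, stood above the SC markers *S100b* at 4211, *Sox10* at 3752 and *Erbb3*. The source of the muscle transcripts was not tested. Of 4 T cell markers, 2 had a mean of at least 10, and their levels ran from 0.982 per kb for *Cd3e*, which encodes a subunit of the T cell receptor complex, to 26.7 for *Cd4*. Of 4 neuron markers, 2 also reached that limit, with *Rbfox3* lowest at 0.827 per kb and *Tubb3* highest at 239. AP-1 genes are expressed in many of these cell types, and the part of each in the levels was not tested. *Ep400* itself had a mean of 4490 normalized counts or 321 per kb over the 6 libraries.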

How the data were processed

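Total RNA of P9 sciatic nerves was sequenced by the authors from stranded mRNA libraries, aligned with STAR 2.5.1 (version from the submitters' processing notes) to the mm10 genome, counted per Ensembl gene with HTSeq and compared with DESeq2. The deposited signal used here is the authors' mean, over 6 libraries, of counts divided by size factors, although its header calls it raw. The table's other columns hold the authors' comparison of the genotypes (fold change, standard error, Wald statistic and p-values) and were not used, so no genotype test was made. It has 0 further columns of per-sample values, and depth is given here as the sum of means, 25608535, and as 6 relative size factors recovered from the smallest means, 0.908 to 1.20.

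Means were divided by the GENCODE M21 exon length, available for 46005 of 46603 gene IDs, or by that of the longest transcript. The authors counted reads on another annotation release, so these lengths may differ from the exons counted over. Exact Poisson intervals (95%) were computed on the mean times 6 libraries and cover counting error only. Where a mean did not exceed 40, the whole reads of each library were solved for. On data simulated with the same 6 recovered size factors, 58 of 58 sets were recovered. Errors in those factors were therefore not part of this check. Zipper identity was counted on translated GENCODE coding sequence, whereas whole RefSeq proteins had been planned. No 2 groups were compared, and no p-values are given. All 10 members are named, and from each list up to 4 genes with the highest level per kb. Some genes that this rule selects are left out of the text. Genes singled out beyond that rule (overlapping genes, *Jdp2*, *Batf*, *Batf2*, *Batf3*, *Mapk10*, markers, genes under the limit and those read per library) were chosen after their values were seen. The members and lists were chosen with earlier results of these data known. Calculations used numpy 2.4.6 and scipy 1.17.1 in Python 3.11.15. Tables were read with pandas 2.3.3, and plots drawn in matplotlib 3.10.9.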

Additional observations from a re-analysis of the deposited data

How the results depend on the processing

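The order of the 10 genes per kb was the same with the longest transcript, and 5 places changed without length correction. The median percentile of the 10 genes by mean was 64.4 among genes with a mean of at least 10, 80.2 among all genes with a mean above 0, 55.4 with a mean of at least 50 and, in an alternative chosen after seeing the data, 72.2 per kb. These differences follow from the genes compared or the length. The share of the *Jun* genes was 86.3% per kb of exon, 82.7% per kb of the longest transcript and 66.8% without length. With a minimum mean of 1, 10 of the genes stayed in, and with 50, 9. At a 10 times wider tolerance, 14 in place of 15 means gave a single set of reads, *Fosl1* being the one lost. No paired analysis was possible because the mean joins all 6 libraries, and for the other 9 genes no library could be left out. In an alternative added after seeing the data, the resolved *Fosl1* mean of 35.7 ranged from 24.4 without library E to 41.8 without library A. For genes with a mean above 40 the spread between libraries is not known here.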

Other observations

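Other low genes of the lists were also resolved into normalized counts of the 6 unlabelled libraries, A to F. The Jun partner gene *Batf3* had 6.66, 12.8, 20.7, 37.3, 34.4 and 35.2, and its relative *Batf* had 9.16, 7.33, 15.5, 30.1, 24.7 and 17.6. *Batf2* had 20.8, 18.3, 11.4, 19.7, 34.4 and 4.40. *Fosl1*, *Batf2*, *Ptgs2*, *Dusp2*, *Npas4*, *Bdnf*, *Artn* and *Olig1* were all highest in library E, the most frequent peak among the 15 resolved genes. How often low genes outside these lists peak in library E was not computed, so this is not shown to be a trait of these genes. *Batf*, *Batf3* and *Mapk10* were highest in library D.

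*Ptgs2*, which encodes the inducible cyclooxygenase, had 3.33, 7.33, 0, 15.6, 23.6 and 9.91. *Olig1* had 0 in libraries A, B and C and 3.11, 5.37 and 3.30 in D, E and F. These values rest on 11 reads in all, too few to group the libraries. *Fosl1*, *Batf*, *Batf3*, *Ptgs2*, *Mapk10* and *Olig1* were each lower in all of A, B and C than in any of D, E and F. The other resolved genes, among them *Gfap* and *Bdnf* from the same injury list as *Olig1*, did not separate these libraries. The split was picked after the values were seen, and what it reflects was not tested. *Gfap* had 12.5, 12.8, 17.6, 6.22, 16.1 and 7.71 normalized counts, and *Bdnf* had 8, 8, 4, 7, 14 and 8 reads. *Artn*, a neurotrophic factor gene of injured SCs, had 1.67, 9.16, 23.8, 7.26, 24.7 and 16.5.

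Antisense genes overlapping *Jun* and *Jund* peaked in other libraries than *Fosl1*. *Junos* had 8.33, 64.1, 24.9, 13.5, 36.5 and 28.6, highest in library B, and *Gm11175* had 33.3, 24.7, 45.6, 11.4, 16.1 and 34.1, highest in library C. *Egr4* had 1, 3, 0, 0, 0 and 1 reads.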
